A study of Mus musculus with 2 samples.

Results

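Zfp genes are mouse genes named for the zinc finger, a fold that holds zinc by cysteines and histidines and can contact DNA or RNA. They were taken as the rows of the deposited expression table whose symbol is Zfp followed by a digit, leaving out Zfp36, Zfp36l1 and Zfp36l2, which bind AU-rich RNA with another kind of finger. The rule gave 80 of the 4898 rows, and each of the 80 symbols stood on 1 row. The rule used names, which follow the presence of zinc fingers, so the finger counts below describe the members and are no finding. Levels, positions and KRAB boxes were not used by it.

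The RNA came from DC1940, a line of CD8α+ dendritic cells of C57BL/6 mice. Such cells take up dead cells and present their antigens to CD8+ T cells. The genotype was wild type, the cells held the empty vector that serves as a control, and they were given pIC, an agonist of the double-stranded RNA sensor TLR3. There was 1 group of 2 libraries of poly(A) RNA. The table gave 1 value per gene over the group, in FPKM, a read count scaled by transcript length and by library size, and its sheet name describes the rows as genes that differed between unstimulated and pIC cells. No value below therefore has an SD, a number of replicates or a test. All are levels after stimulation, and the direction and size of the difference from unstimulated cells were not analysed here. The duration of the stimulation and the depth of the libraries were not given, and whether the line is a single clone was not stated. In such bulk RNA, fewer cells that express a gene and less of its RNA per cell cannot be told apart.

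Values of marker genes are given beside the cell type named by the labels. The rows are described as genes that differed between unstimulated and pIC cells, so the number of markers listed is no check of cell type. A marker that is not listed has no level here. Of 13 markers of CD8α+ dendritic cells, 9 were listed, between 5.62 FPKM for Flt3 and 387 FPKM for Xcr1. Of markers of other cells, 4 of 6 for other dendritic cells, 4 of 4 for macrophages, 1 of 4 for lymphocytes and 1 of 4 for fibroblasts and epithelium were listed, at 0.176 to 5.41 FPKM.

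Most proteins of this kind carry their fingers in a row, like beads, each finger reading a few bases of DNA, and the linker between them is itself conserved. Many also carry a KRAB box at the N terminus, which recruits the corepressor TRIM28 (KAP1) and, through it, enzymes that methylate histones and silence chromatin. KRAB zinc finger genes multiplied by tandem duplication and stand in clusters on a few chromosomes, and many of their products are known to bind and silence transposable elements. Zfp genes without a KRAB box include older regulators of development and of the cell cycle, cofactors of chromatin enzymes and proteins that act on RNA.

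The sequences that follow show the fingers and the KRAB box as these genes encode them. They are coding-strand sequences of GENCODE M21 transcripts (GRCm38, the same assembly as mm10), written 5′ to 3′. The first set holds 1 finger each, 84 bases long, and the capitals mark the codons of the cysteines and histidines that hold zinc. The last 7 codons are what follows the finger, the linker wherever another finger comes next. Zfp217, Zfp366 and Zfp62 are shown because they were among the highest members and have no KRAB box. Zfp808 with Zfp934, and Zfp119b with Zfp119a, are shown as neighbouring KRAB genes with similar coding sequences. For Zfp934 and Zfp119a the finger is the one most like that printed for the neighbour. The fingers printed for Zfp808 and Zfp934 differed at 13 of 84 bases, as did those for Zfp119b and Zfp119a. These counts describe the printed fingers only and are no measure of the whole coding sequences. Over the aligned coding bases the 2 pairs were 95.6% and 88.4% identical.
Zfp217, chr2:170119956-170120039, minus strand: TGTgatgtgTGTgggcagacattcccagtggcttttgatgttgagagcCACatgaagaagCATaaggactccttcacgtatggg
Zfp366, chr13:99229086-99229169, plus strand: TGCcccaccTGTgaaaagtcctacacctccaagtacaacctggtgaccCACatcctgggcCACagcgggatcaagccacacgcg
Zfp62, chr11:49215459-49215542, plus strand: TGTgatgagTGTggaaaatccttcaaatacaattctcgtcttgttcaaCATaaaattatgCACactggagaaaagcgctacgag
Zfp808, chr13:62171445-62171528, plus strand: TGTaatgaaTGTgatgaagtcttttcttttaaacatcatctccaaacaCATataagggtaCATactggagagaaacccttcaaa
Zfp934, chr13:62518184-62518267, minus strand: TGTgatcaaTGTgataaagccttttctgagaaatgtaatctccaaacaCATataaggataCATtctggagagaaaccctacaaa
Zfp119b, chr17:55939237-55939320, minus strand: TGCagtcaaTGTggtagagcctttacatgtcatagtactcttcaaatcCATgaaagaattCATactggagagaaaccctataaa
Zfp119a, chr17:55865720-55865803, minus strand: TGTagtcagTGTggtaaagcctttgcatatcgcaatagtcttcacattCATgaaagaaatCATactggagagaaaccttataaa

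The second set holds the stretch of 90 bases that encodes the core of the KRAB box. The capitals mark the codons whose amino acid is one of those usual at 14 positions of the box. Zfp119b and Zfp808 kept 14 of the 14, and Zfp282 kept 12. Zfp282 is shown because it was the second highest KRAB member and had a more divergent box.
Zfp119b, chr17:55941211-55941300, minus strand: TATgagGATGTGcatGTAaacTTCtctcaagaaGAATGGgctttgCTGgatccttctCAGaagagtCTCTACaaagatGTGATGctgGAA
Zfp808, chr13:62169454-62169543, plus strand: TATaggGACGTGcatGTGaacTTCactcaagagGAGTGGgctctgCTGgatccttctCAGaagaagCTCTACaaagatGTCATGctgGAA
Zfp282, chr6:47890078-47890167, plus strand: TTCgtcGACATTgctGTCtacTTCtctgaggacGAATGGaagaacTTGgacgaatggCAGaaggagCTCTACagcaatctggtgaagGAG

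The coding sequences of all 80 members were read for these features. A KRAB box was counted where at least 11 of the 14 positions were kept, and 42 members (52.5%) had one. No member fell between the groups, as those with a box kept 12 to 14 positions and the other 38 kept 3 to 7. Zfp180, Zfp213 and Zfp236 kept 7 and Zfp956 kept 6. A box that kept fewer than 11 positions is counted as absent by this rule, so a divergent box could be missed. Fingers of the classical C2H2 spacing numbered 781 in all, with a median of 11 for a KRAB member and 6 for a member without the box. Linkers that begin with the usual threonine, glycine and then glutamate or lysine followed 291 of the 485 fingers of KRAB members and 90 of the 296 fingers of the others. Zfp236 had the most fingers, 29, followed by Zfp62 with 25. Zfp503, a corepressor of embryonic patterning, had 0 by this spacing, and Zfp706, the shortest protein at 76 residues, had 1.

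Zfp genes were listed at about the share of all genes. Of 394 protein-coding Zfp genes annotated by RefSeq, 80 were listed (20.3%), and of all 21900 protein-coding genes 4622 were listed (21.1%). The genes that the authors tested are not known, so a gene that is not among the rows has no level here.

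The listed Zfp genes stood at low levels. Their median was 2.67 FPKM, with quartiles of 1.12 and 7.83 and a range of 0.155 to 50.7. The median of all 4898 rows was 9.68 FPKM, with quartiles of 2.32 and 33.4, and that of the 4818 rows that are no member 9.92. Of the 80 members, 18 (22.5%) were under 1 FPKM, against 14.1% of all rows. There were 16 members (20%) at 10 FPKM or more, against 49.4% of all rows, and 0 at 100 FPKM or more, against 9.60% of all rows. Below the lower quartile of all rows stood 38 members (47.5%), and above the upper quartile 2. Together the 80 members held 0.183% of the FPKM summed over the table.

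**Figure D1:**
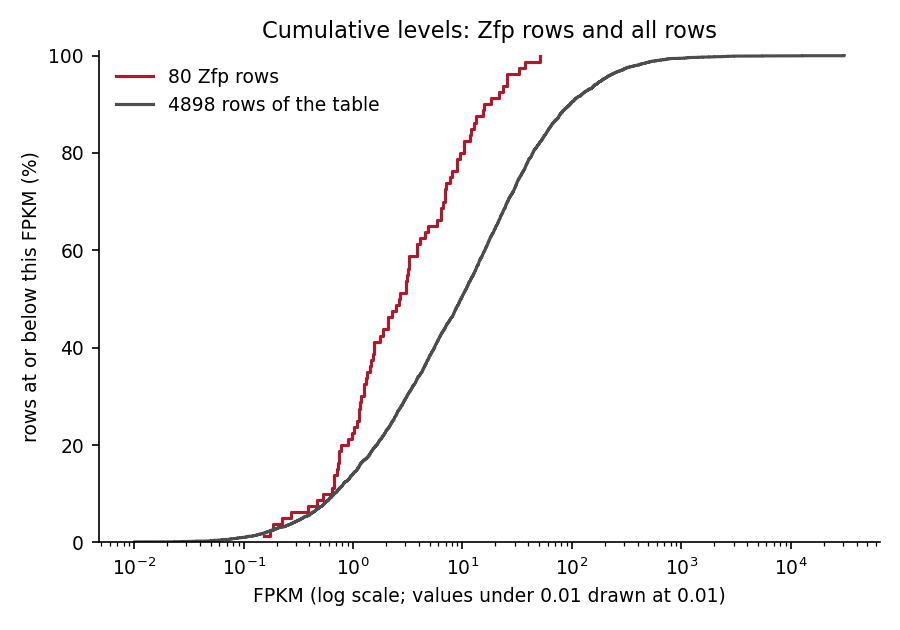
Cumulative share of rows (vertical axis, percent) at or below each level (horizontal axis, FPKM on a log scale) for the 80 Zfp rows and for all 4898 rows, which include them. The curve of the Zfp rows lies to the left through most of its range, with medians of 2.67 and 9.68 FPKM, and ends at 50.7 FPKM.

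The highest members were mostly genes without a KRAB box. Zfp217, whose human counterpart is an oncogene that binds CtBP and CoREST corepressors, had 50.7 FPKM, the highest value of the 80 (mm10, chromosome 2, 170108643 to 170142675). That placed it at the 82.1 percentile of all rows. Zfp366, known as DC-SCRIPT and marked by its expression in conventional dendritic cells, followed at 37.5 FPKM (chromosome 13, 99184823 to 99247032). These 2 genes were the members above the upper quartile of all rows. Zfp800 had 32.7 FPKM (chromosome 6, 28239931 to 28261601). Zfp62 had 25.7 FPKM, Zfp367 25.3 and Zfp513, whose human counterpart has been linked to inherited retinal degeneration, 23.6.

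Zfp385a (also called HZF), a p53 target that steers p53 towards genes of cell cycle arrest, had 21.5 FPKM. Its relative Zfp385c had 8.86 FPKM, a value that is uncertain because its interval overlapped Nkiras2. Zfp706, which represses Klf4 in embryonic stem cells, had 18.1 FPKM. Zfp131, which carries a BTB domain, a fold for protein pairing, had 15.8 FPKM. Zfp451, whose human counterpart is a SUMO ligase, had 15.4 FPKM and was the only member on chromosome 1. Zfp296, a cofactor of reprogramming to pluripotency, had 13.4 FPKM, and Zfp516, an activator of brown fat genes, 12.9. Of the 15 highest members, 12 had no KRAB box and 12 stood alone, with no other member within 1 Mb.

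**Figure D2:**
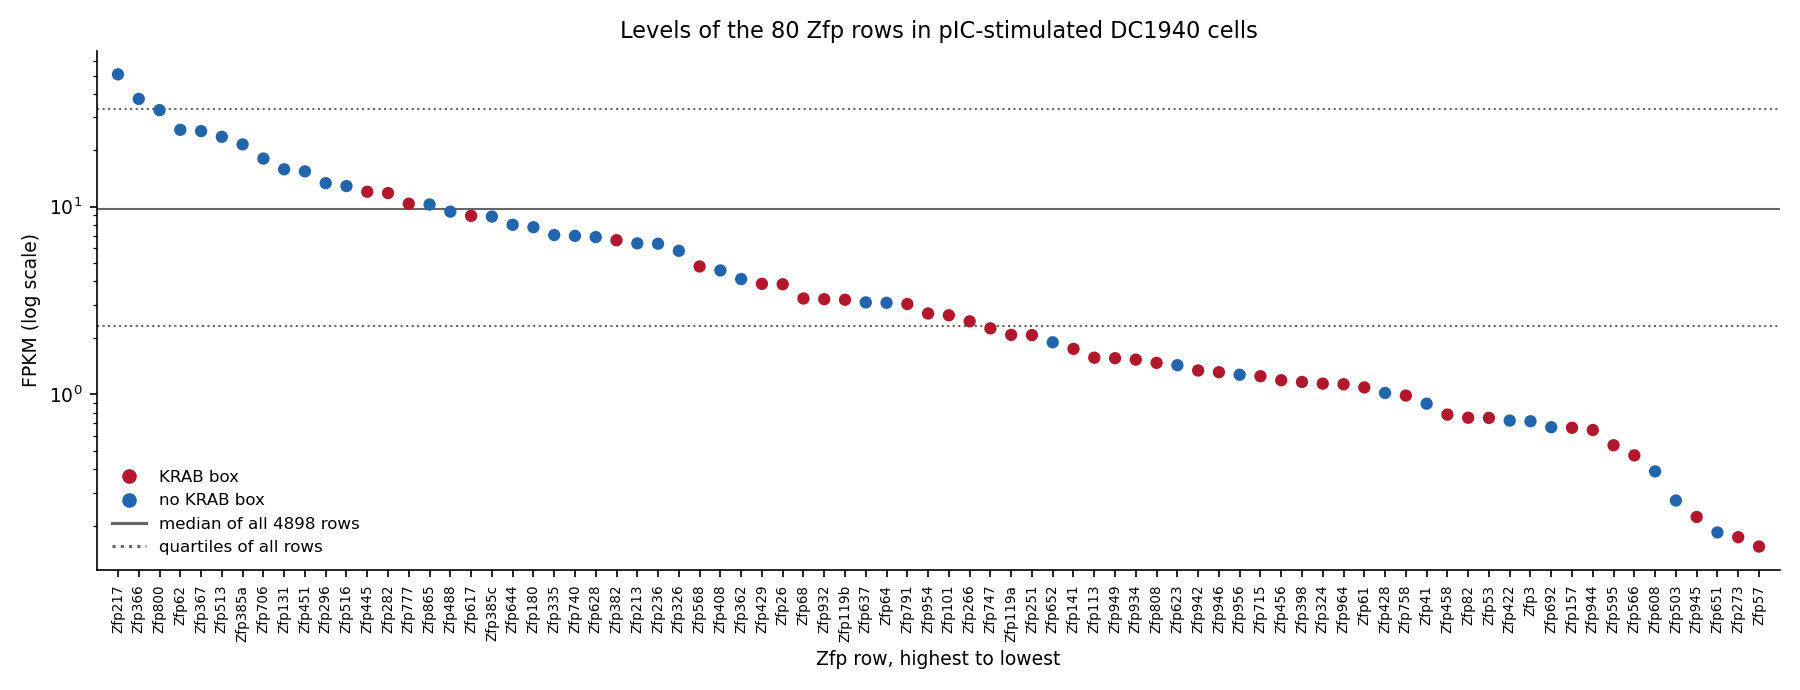
Level of each of the 80 Zfp rows (vertical axis, FPKM on a log scale) from the highest to the lowest, coloured by the presence of a KRAB box, with the median of all rows as a solid line and their quartiles as dotted lines. Zfp217, at 50.7 FPKM, and Zfp366, at 37.5, lie above the upper quartile, and 38 members lie below the lower one.

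Further members without a KRAB box act with chromatin and RNA machinery. Zfp644, a partner of the histone methyltransferases G9a and GLP, had 8.01 FPKM. Zfp335, a component of histone H3K4 methyltransferase complexes that is needed for mouse T cell maturation, had 7.06 FPKM, a value that is uncertain because its interval overlapped Pcif1 and 20.3% of its 50-base windows also occurred in other transcripts. Zfp326, a subunit of a complex that links transcript elongation to splicing, had 5.82 FPKM. All 3 stood between the lower quartile and the median of all rows.

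KRAB members stood lower than the others. The 42 KRAB members had a median of 1.55 FPKM and a range of 0.155 to 12.01, and the 38 others a median of 6.94 FPKM and a range of 0.184 to 50.7. The ranges overlapped between 0.184 and 12.01 FPKM, and all values above that were of members without a box. Of the KRAB members, 3 (7.14%) reached the median of all rows, as did 13 (34.2%) of the others, and 11 (26.2%) of the KRAB members were under 1 FPKM, as were 7 (18.4%) of the others. No test was made, since genes are not replicates and each has 1 value.

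The 3 highest KRAB members were Zfp445, Zfp282 and Zfp777. Zfp445, which helps keep DNA methylation at imprinted genes, had 12.01 FPKM (chromosome 9, 122848910 to 122866006). Zfp282, whose human counterpart HUB1 was found as a repressor of the HTLV-1 promoter, had 11.8 FPKM. Zfp777 had 10.4 FPKM. Zfp57, the other known keeper of imprinted methylation, stood at the opposite end with 0.155 FPKM, the lowest value of the 80 (chromosome 17, 37001163 to 37010729). The levels of Zfp445 and Zfp57 thus lay at the 54.2 and 1.92 percentiles of all rows.

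Zfp568, which silences a placental Igf2 transcript, had 4.81 FPKM. Zfp932, which binds endogenous retroviruses, had 3.22 FPKM, but 55.5% of the 50-base windows of its transcript were also found in transcripts of other genes, mostly of Gm15446, so this value is uncertain. The 8 lowest members held 5 with a KRAB box. Besides Zfp57 these were Zfp273 with 0.174 FPKM, Zfp945 with 0.222, Zfp566 with 0.473 and Zfp595 with 0.536. The other 3 were Zfp651 with 0.184 FPKM, Zfp503 with 0.272 and Zfp608, a repressor of recombinase genes in thymocytes, with 0.389.

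Number of fingers and length of the protein went little with the level. Across the 80 members Spearman's rho with FPKM was -0.10 for the number of fingers and 0.18 for protein length. Within KRAB members these were -0.12 and 0.24 (n = 42), and within the others 0.18 and 0.14 (n = 38). All points come from the same pooled libraries, and FPKM is already divided by transcript length. The promoters also differed in sequence between the classes. A RefSeq promoter (GRCm38.p6, 250 bases before to 50 after the start) was matched for 68 members, 39 of 42 with a KRAB box and 29 of 38 others. The matched start lay 17222 bases from the 5′ end of the deposited interval for Zfp273. For Zfp956 it lay 10215 bases away and for Zfp213 1068, so these may not be the promoters of the measured transcripts. The median count of CpG was 11 in 39 KRAB members and 19 in 29 others, against 13 over 21263 promoters of protein-coding genes. The rho of CpG count and FPKM was 0.12 within KRAB members and -0.07 within the others.

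**Figure D3:**
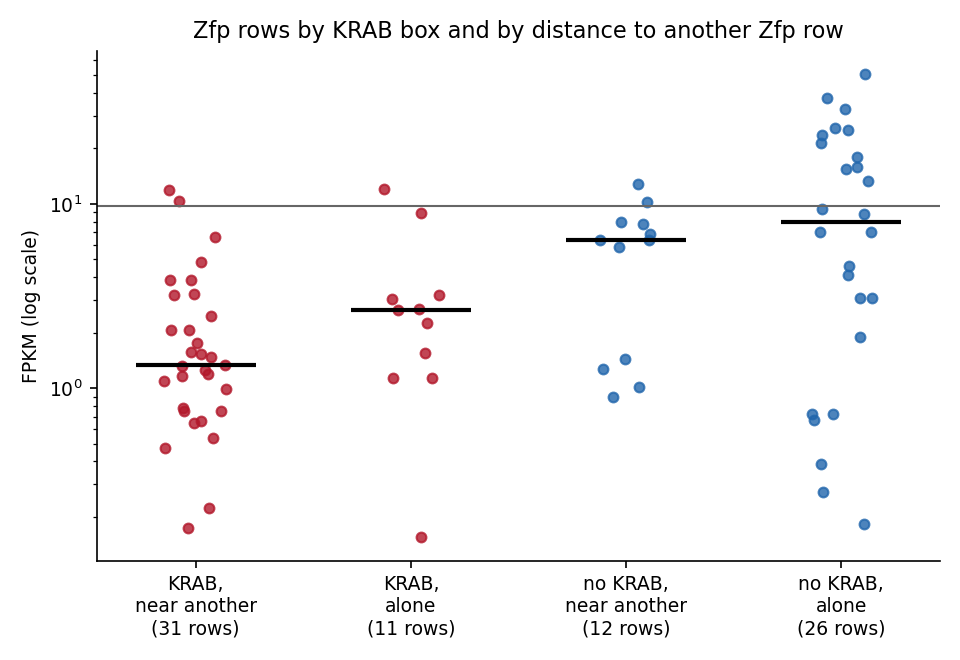
Level of each Zfp row (vertical axis, FPKM on a log scale) by the presence of a KRAB box and by whether another Zfp row lay within 1 Mb; each point is a gene, the black bars are medians and the grey line is the median of all rows. The medians are 1.34 and 2.64 FPKM for KRAB members near another and alone, and 6.36 and 7.96 FPKM for the others near another and alone.

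Chromosome 7 held 15, chromosome 17 held 11 and chromosome 13 held 10. These 3 chromosomes held 45.0% of the members and 44.2% of the 394 annotated Zfp genes, against 16.2% of all rows. Elsewhere the share of annotated genes that were listed varied. Of the annotated Zfp genes, 6 of 11 on chromosome 15 were listed, 7 of 17 on chromosome 6 and 7 of 19 on chromosome 5. On chromosome 4, by contrast, 1 of 27 was listed, Zfp362 with 4.11 FPKM, and on chromosome 8 it was 3 of 25. On the chromosomes 3, 10, 12, 16, 19 and X, with 3 to 9 annotated Zfp genes each, the count was 0.

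**Figure D4:**
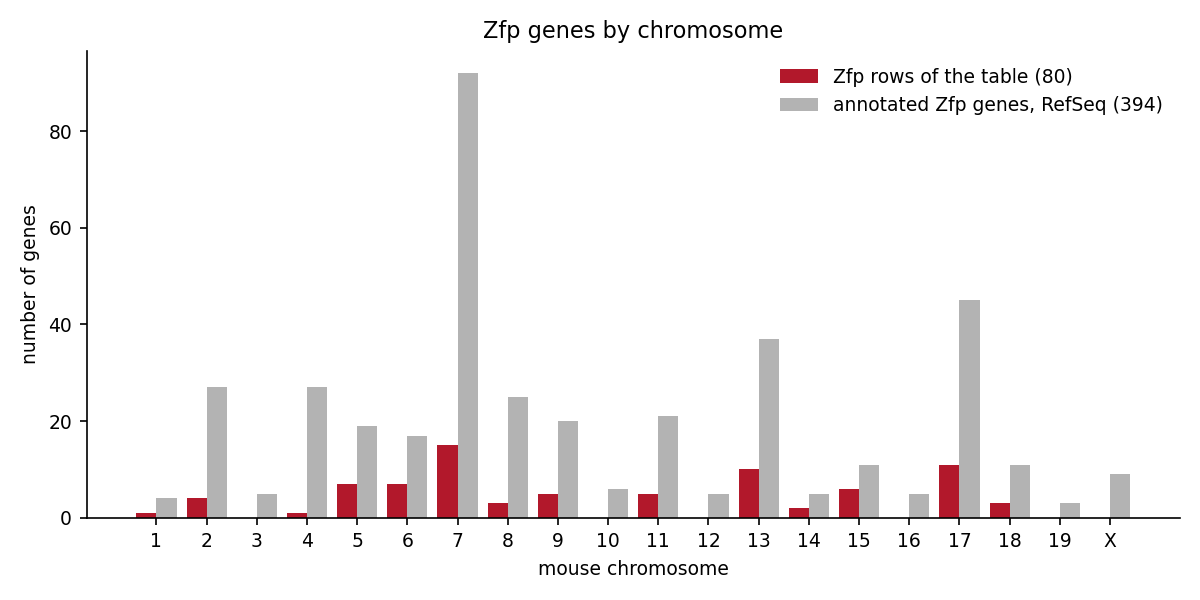
Number of Zfp rows in the table and of Zfp genes annotated by RefSeq (vertical axis) on each mouse chromosome (horizontal axis). Chromosome 7 has the most of both, 15 of 92, and chromosome 4 has 1 of 27.

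Near neighbours were common. Of the 80 members, 43 (53.8%) had another member within 1 Mb, in 14 groups, and of the 394 annotated Zfp genes, taken with all their annotated neighbours, 283 (71.8%) did. A subset of genes has fewer near neighbours than the whole by construction. Among KRAB members 31 of 42 (73.8%) were near another, and among the others 12 of 38 (31.6%). In both classes the members near another had the lower median, 1.34 against 2.64 FPKM among KRAB members and 6.36 against 7.96 FPKM among the others.

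The largest group lay on chromosome 17 (21488988 to 23565294), where 7 of 18 annotated Zfp genes were listed. In genome order Zfp53 had 0.750 FPKM, Zfp942 1.34, Zfp944 0.646, Zfp758 0.986, Zfp946 1.31, Zfp945 0.222 and Zfp213 6.38. The 6 genes with a KRAB box stood at or under 1.34 FPKM, and Zfp213, at the far end and without a box by this count, was the highest of the group. Of the windows of Zfp213, 52.3% also occurred in other transcripts, mostly of Gm26695, so its value is uncertain. For Zfp944 the share was 10.4%, and its value is uncertain too. The intervals of Zfp944 and Zfp758, on opposite strands, lay 52 bases apart.

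The next group lay on chromosome 13 (67254918 to 67830985), where 5 of 19 annotated genes were listed, all with a KRAB box. Zfp458 had 0.781 FPKM, Zfp595 0.536, Zfp456 1.19, Zfp429 3.88 and Zfp273 0.174. Zfp429 and Zfp273 are adjacent among the members, 396826 bases apart, and differed 22.4-fold. The shares of windows found in other transcripts were 65.3% in Zfp456, 26.2% in Zfp429 and 24.3% in Zfp273, so these values are uncertain.

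On chromosome 6 (47835661 to 48048114) the 4 listed of 6 annotated genes alternated between low and high. Zfp398 had 1.16 FPKM, Zfp282 11.8, Zfp956 1.27 and Zfp777 10.4. The row of Zfp956 also carried an accession of Zfp783, so its value cannot be assigned to Zfp956 alone. On chromosome 7 (29983955 to 30135032) 4 of 6 genes were listed, all with a KRAB box. Zfp568 had 4.81 FPKM, Zfp82 0.751, Zfp566 0.473 and Zfp382 6.63. The outer genes were thus higher than the inner genes, and all 4 stood below the median of all rows. The intervals of Zfp82 and Zfp566 both overlapped Gm26920, and 94.4% of the windows of Zfp82 were also found in other transcripts, mostly in Gm26920, which makes the value of Zfp82 uncertain. For Zfp566 the share was 15.7%, and its value is uncertain too.

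**Figure D5:**
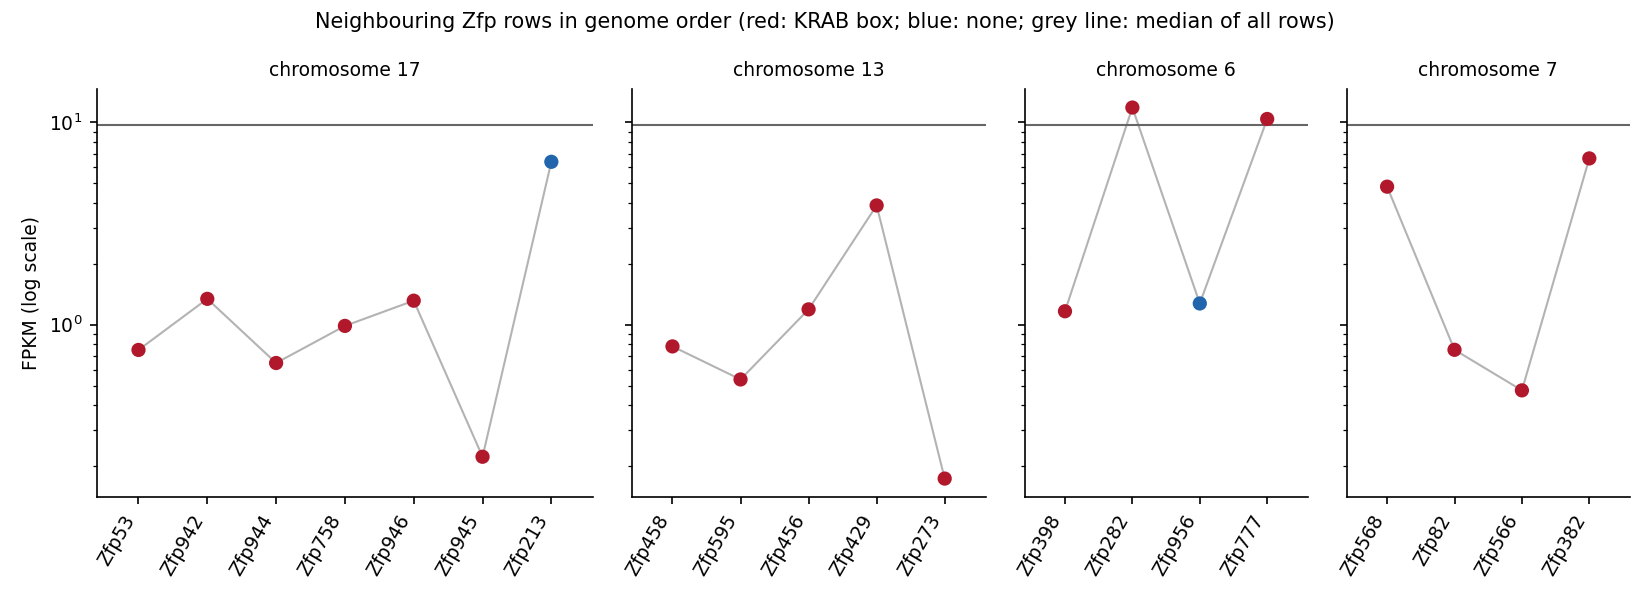
Level (vertical axis, FPKM on a log scale) of neighbouring Zfp rows in genome order (horizontal axis) in the 4 groups with 4 or more members; distance is not to scale. Red points have a KRAB box, blue points have none and the grey line is the median of all rows. Adjacent genes differ most between Zfp945, at 0.222 FPKM, and Zfp213, at 6.38, on chromosome 17.

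The smaller groups comprised 3 of 3 members and 7 of 2. Zfp180, at 7.77 FPKM, stood near Zfp61 and Zfp428, at 1.09 and 1.02, on chromosome 7. Zfp113, Zfp157 and Zfp68 on chromosome 5 had 1.57, 0.664 and 3.24 FPKM. Zfp41, Zfp623 and Zfp251 on chromosome 15 had 0.892, 1.43 and 2.07 FPKM. The folds within the pairs ran from 1.04 to 2.03, and those between adjacent genes in the groups of 3 from 1.07 for Zfp61 with Zfp428 to 7.14 for Zfp180 with Zfp61. The pairs were Zfp808 with Zfp934, Zfp119b with Zfp119a, Zfp26 with Zfp266, Zfp141 with Zfp715, Zfp628 with Zfp865, Zfp326 with Zfp644 and Zfp236 with Zfp516.

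Neighbours with similar coding sequences had levels within 3.26-fold of each other. Of 29 pairs of adjacent members, 7 had coding sequences of 80% identity or more over the aligned bases. The higher member stood 1.04 to 3.26 times above the lower in these, with a median of 1.53. In the 22 pairs of lower identity the fold ran from 1.07 to 28.7, with a median of 2.29. Of these, 9 differed 5-fold or more, against 0 of the 7. Most of the 9 include a value called uncertain or not assignable above, as for Zfp213, Zfp273, Zfp956, Zfp82 and Zfp566. The 7 pairs hold KRAB members only, while several of the 9 join a KRAB member to a member without a box. Identity was thus not compared at equal class, and some pairs share a member. Zfp808 and Zfp934, whose fingers are printed above, were 95.6% identical over 1419 aligned bases and had 1.47 and 1.53 FPKM. Zfp808 encodes 753 residues and Zfp934 473, so part of the coding sequence of Zfp808 lay outside that comparison. Zfp119b and Zfp119a were 88.4% identical and had 3.19 and 2.08 FPKM.

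Similar copies can share reads, and the part of this in these folds was not tested. In Zfp808 46.4% of the 50-base windows also occurred in other transcripts and in Zfp934 41.6%, each mostly in the other gene. In Zfp119b the share was 21.6% and in Zfp119a 16.6%. The values of these 4 genes are therefore uncertain. Across the 80 members 29 shared no such window, 28 shared less than 10% and 23 shared 10% or more, of which 15 had a KRAB box. Zfp217, Zfp62, Zfp385a, Zfp131, Zfp445, Zfp282 and Zfp777 were among those that shared none. Of the 15 highest, only Zfp367 and Zfp296 shared 10% or more, 15.9% and 14.4%. The intervals of 12 members overlapped another protein-coding gene, among the 15 highest those of Zfp513 (Snx17) and Zfp296 (Gemin7). The others were those of Zfp865, Zfp385c, Zfp335, Zfp740, Zfp934, Zfp456, Zfp428, Zfp82, Zfp595 and Zfp566. Without a statement of strand, reads of overlapping genes cannot be told apart, so these values are uncertain.

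The 20 remaining members, which the rule for named genes does not reach, had 0.669 to 9.41 FPKM with a median of 2.86. They include Zfp488, a regulator of oligodendrocyte maturation, with 9.41 FPKM, and Zfp692 with 0.669. The value of Zfp488 is uncertain, with 15.6% of its windows also found in other transcripts.

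Other families of zinc finger genes had higher medians than the 80 Zfp rows, at 2.67 FPKM. The Klf median was below that of the 38 Zfp members without a KRAB box, at 6.94 FPKM. The median of all rows was 9.68 FPKM. The 11 listed Zbtb rows, most of which encode fingers joined to a BTB domain, had a median of 10.1 FPKM, led by Zbtb7a with 52.9, and included Zbtb46, a marker of conventional dendritic cells, with 24.3. Zbtb8os, with 35.7 FPKM, shares only the name but is counted in this median and in the share below. Without it the middle values would be those of Zbtb5, 10.1 FPKM, and Zbtb21, 7.68, on either side of the median of all rows. The lowest Zbtb row was Zbtb16 with 0.0722 FPKM. The 10 Zc3h rows, whose fingers bind RNA, had a median of 28.5 FPKM, led by the antiviral factor gene Zc3hav1 (ZAP) with 120 FPKM. Of 19 annotated Zc3h genes 10 were listed (52.6%), and of 41 Zbtb genes 11 (26.8%), against 21.1% of all protein-coding genes. The shares were 29.4% for Klf (5 of 17), 18.2% for Zkscan (2 of 11) and 12.5% for Zscan (2 of 16). Of 5 annotated Ikzf genes 1 was listed. The 5 Klf rows had a median of 5.69 FPKM, with Klf6 at 234, and the Zscan and Zkscan families had 2 rows each, between 2.55 and 16.4 FPKM. The only Ikzf row, Ikzf1 (Ikaros), had 59.8 FPKM. The search for Sp genes found Sp100, Sp110 and Sp140, at 264 to 353 FPKM, which encode nuclear body proteins and not factors of the Sp family. The rows of Sp110 and Sp140 have the same interval, so their separate values are uncertain.

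The corepressor that KRAB boxes act through is assembled from proteins of many genes. Of a list of 39 genes of TRIM28, SETDB1, HP1, NuRD, HUSH, SUMO and DNA methylation machinery, 12 were listed (30.8%, against 21.1% of all protein-coding genes), and the other 27 are not analysed here, Trim28 and Setdb1 among them. The 12 had a median of 35.96 FPKM. The histone deacetylase gene Hdac1 had 268 FPKM and the histone H3.3 chaperone gene Daxx 170. The NuRD genes Gatad2a and Gatad2b had 65.4 and 29.03 FPKM, Morc3 59.99, the HUSH gene Pphln1 39.5, Atrx, the partner of Daxx, 32.5 and Sumo3 31.4. The DNA methyltransferase gene Dnmt3a had 19.4 FPKM, Morc2a 9.15 and Fam208a, which encodes the HUSH subunit TASOR, 5.58.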

How the data were processed

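Per the labels' protocols, mRNA for the 2 libraries was isolated from total RNA on poly(A) beads. The submitters' processing notes list Cufflinks 2.2.1, TopHat2 2.1.0 and FastQC 0.11.5, with mm10 as the build. The values in the deposited table are FPKM, per the file headers, 1 per row for pIC cells. No source used here says how the authors combined the libraries or set the threshold for a row. An emptied line was dropped. The depth is unknown, and intervals or floors that need it are left out.

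Members and lists were chosen with earlier results of these data known. Named genes are the 15 highest and 8 lowest members, all members within 1 Mb of another, 12 listed members of a list of 40 genes with known roles, and the listed corepressor genes, of which 1 is counted but not reported here; other members and families named were chosen after their values were seen. Deposited starts count from 0, so 1 was added. Distances are gaps between deposited intervals. For each row the longest coding sequence among the GENCODE M21 transcripts of its RefSeq accessions was translated. A C2H2 finger had 2 to 4 residues between cysteines, 12 between the inner pair and 3 to 5 between histidines. Windows of 50 bases of the longest such transcript were sought, on both strands, in GENCODE M21 transcripts of other genes; no source used here gives the read length. Coding sequences of neighbours were aligned globally with free end gaps. The searches for fingers, boxes and neighbours were tested on simulated data. No test of significance was made. The tools were Biopython 1.88, SciPy 1.17.1, matplotlib 3.10.9, numpy 2.4.6, pandas 2.3.3 and Python 3.11.15.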

Additional observations from a re-analysis of the deposited data

How the results depend on the processing

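Of 25 alternatives tried, 21 moved a value by less than 1.5 times (medians and counts) or, for shares, left it within a 95% exact binomial interval, which serves here only as a yardstick of size since genes are not replicates. The share of members under the floor, 22.5% at 1 FPKM, was 8.75% at 0.5 FPKM and 43.75% at 2 FPKM, against 7.27% and 22.9% of all rows. The share of annotated Zfp genes listed, 20.3%, was 15.7% when 1 FPKM was required, against 18.2% of all protein-coding genes. The 43 members with a near neighbour were 28 at a gap under 250 kb. These follow from the construction of the settings. Among the 21, leaving out rows under 1 FPKM came close to the limit of 1.5 times. It gave a median of 3.998 FPKM for the members, against 13.9 for all rows, and 2.25 for KRAB members and 8.01 for the others. Taking 1 row per symbol could change nothing, as each symbol stood on 1 row. Limiting members to those with under 10% of windows shared, chosen after seeing the data, gave medians of 1.34 FPKM for 27 KRAB members and 6.62 FPKM for 30 others. No paired analysis was possible because each gene has a single value over both libraries of the only group, and for that reason neither library could be left out.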

Other observations

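The rows of the table are not in order of level: from the top, locus numbers rise without a break over 2406 rows (49.1%), and no source used here says what ordered the table. Of the 80 Zfp rows, 21 (26.2%) stood in that first run. Among rows under 10 FPKM the share was 20.3% of 64 Zfp rows and 43.8% of 2480 rows in all, and among rows of 10 FPKM or more it was 8 of 16 Zfp rows and 54.5% of 2418. By class, 8 of 42 KRAB members and 13 of 38 others stood in the run. Both Zfp217 and Zfp366, the highest members, were in it, and Zfp57, the lowest, was not. The search of the row order was made after it had been seen, and the part of the level in these shares was not tested further.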
